A study of Mus musculus with 9 samples.

Results

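SOX6 binding sites of oligodendrocyte progenitor cells (OPCs) were compared between the mouse cell lines 129O1 and EpiSC5, by asking which sites were listed in both lines and which in 1 line only. Sites were the peaks of the SOX6 chromatin immunoprecipitation (ChIP-seq) list of each line on chromosomes 1 to 19. There were 22320 such peaks of 22883 in 129O1 and 15166 of 15490 in EpiSC5, together 37486 of the 165767 peaks in the 7 lists of the study. A peak was classed as shared when it overlapped a peak of the other line by at least 1 bp, and as found in 1 line only otherwise.

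The study mapped SOX6 and the acetylated histone residue H3K27ac, a mark of active promoters and enhancers, in OPCs and in their O1-positive oligodendrocyte progeny (OLs). OPCs were grown from epiblast stem cells of both lines with the growth factors bFGF and PDGFA and without SHH, sorted after passaging for the surface proteins CD140a and NG2, and expanded again. The labels derive EpiSC5 and 129O1 from the mouse strains 129SvEv and 129S1/SvImJ, named in that order, so strain and line cannot be told apart. The cells were untreated and carry no genetic change named in the labels. Chromatin was pulled down with 15 µg of a SOX6 antibody or 9 µg of an H3K27ac antibody per sample. Each line gave 1 OPC SOX6 library, so every difference between the lines is a difference between 1 library and 1 library, and no p-value is given. Sequencing depth behind each list is unknown, since peak lists carry no counts of reads.

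SOX6 is a transcription factor of the SoxD group, which carries an HMG box that binds a short AT-rich core in the minor groove of DNA and bends it, and a coiled coil through which SoxD proteins pair. SoxD proteins have no known activation domain of their own, and act with other factors at enhancers and promoters. In the oligodendrocyte lineage SOX5 and SOX6 are known for holding cells in the progenitor state, in part by competing with the SoxE proteins SOX9 and SOX10.

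The base sequence under 6 SOX6 summits is shown here because these windows place each peak class at a start site of a lineage gene. Each holds 101 bases centred on the summit, lies upstream of a RefSeq start site and is written 5′ to 3′ on the strand of the gene (C57BL/6J reference, GRCm38.p6, which mm10 names). Capitals mark the letters AACAAT or ACAAAG on either strand, hence also ATTGTT or CTTTGT. Sox6 has a shared summit at an internal start (chr7:115824839-115824939, minus strand) and a 129O1-only summit at an upstream one (chr7:116031048-116031148, minus strand). Olig2, the basic helix-loop-helix factor that specifies the lineage, has a shared summit (chr16:91225398-91225498, plus strand). Mobp, a myelin protein gene (chr9:120149501-120149601, plus strand), and Id2, an inhibitor of basic helix-loop-helix factors (chr12:25096163-25096263, minus strand), have summits in 129O1 only. Neu4, a sialidase gene (chr1:94020277-94020377, plus strand), has a summit in EpiSC5 only. The windows were chosen after their values were seen.
Sox6, shared: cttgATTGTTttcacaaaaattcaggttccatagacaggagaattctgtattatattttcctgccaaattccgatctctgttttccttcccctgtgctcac
Sox6, 129O1 only: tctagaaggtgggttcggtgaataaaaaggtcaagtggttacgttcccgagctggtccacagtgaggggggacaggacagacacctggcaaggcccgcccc
Olig2, shared: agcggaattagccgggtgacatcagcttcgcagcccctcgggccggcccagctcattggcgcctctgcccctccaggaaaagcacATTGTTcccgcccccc
Mobp, 129O1 only: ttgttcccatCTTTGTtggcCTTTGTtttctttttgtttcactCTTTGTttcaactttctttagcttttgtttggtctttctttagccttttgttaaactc
Id2, 129O1 only: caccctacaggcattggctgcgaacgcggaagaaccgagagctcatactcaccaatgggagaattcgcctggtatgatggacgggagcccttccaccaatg
Neu4, EpiSC5 only: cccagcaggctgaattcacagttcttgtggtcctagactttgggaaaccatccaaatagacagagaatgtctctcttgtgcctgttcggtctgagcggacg

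Of the 129O1 peaks, 13633 (61.1%) were shared and 8687 (38.9%) were found in 129O1 only. Of the EpiSC5 peaks, 13696 (90.3%) were shared and 1470 (9.69%) were found in EpiSC5 only. The smaller list was thus nearly contained in the larger. The percentages refer to lists of different length. When the 129O1 list was trimmed by −log10 q to as many peaks as EpiSC5 has, 77.2% and 77.7% of the peaks were shared. The overlap rule mattered most for the small EpiSC5-only class, which grew from 1470 to 2076 peaks when an overlap of 50% of both peaks was asked for, and to 2063 with summits within 100 bp. The 129O1-only class grew from 8687 to 9230 and 9217. The shared peaks formed 13727 overlapping pairs, of which 13484 joined a single peak to a single peak, 95.4% overlapped over at least 50% of both peaks, and 5 overlapped by less than 50 bp, the smallest by 2 bp. Just outside the rule, 16 peaks of 129O1 only and 7 of EpiSC5 only lay within 100 bp of a peak of the other line. The median gap to the other line's nearest peak was 35.95 kb for 129O1-only peaks and 37.3 kb for EpiSC5-only peaks, and 21.01% and 23.2% lay over 100 kb away.

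Shared peaks were wider and stood higher over background than peaks of 1 line only, in each line. Median width was 363 bp for shared and 245 bp for 129O1-only peaks in 129O1, and 321 and 232.5 bp in EpiSC5. The authors' fold enrichment, a value of each peak within its own list, had medians of 6.30 and 4.12 in 129O1 and of 5.20 and 4.02 in EpiSC5. The highest value was 53.8 for shared and 19.5 for 129O1-only peaks, and 43.4 and 16.9 in EpiSC5. Sorted by −log10 q into 4 equal groups, the 129O1 list was shared to 24.3% in the lowest, 44.6% and 77.4% in the next, and 98.0% in the highest group. In EpiSC5 these shares were 77.9%, 87.6%, 96.2% and 99.5%. Nearly all of the strongest sites of either line were therefore listed in the other, and the 1-line classes were drawn mostly from the weak end of each list.

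The summit offset, the distance from the left edge of a peak to its highest point, had a median of 174 bp for shared and 126 bp for 129O1-only peaks, and of 159 and 118.5 bp in EpiSC5. As a share of the width it lay near the middle in every class, at 49.6% and 49.2% in 129O1 and at 49.4% and 49.0% in EpiSC5. The spread differed. The summit fell between 40% and 60% of the width in 67.8% of shared and 55.6% of 129O1-only peaks, and in 68.0% and 55.6% in EpiSC5. The shorter offsets of the 1-line classes thus went with narrower peaks, and their summits were less often central. Where the lines shared a peak, their summits were close, with a median distance of 22 bp (quartiles 10 and 40.5 bp). They were within 50 bp in 83.1% and within 100 bp in 95.5% of pairs. They were more than 0.5 kb apart in 56 pairs, at most 1972 bp.

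H3K27ac covered shared SOX6 peaks more often than peaks of 1 line only, in both lines. In 129O1, 75.1% of shared peaks (exact 95% binomial interval 74.4 to 75.8) and 60.4% of 129O1-only peaks (59.4 to 61.4) overlapped an OPC H3K27ac peak of 129O1, against 69.4% of all its SOX6 peaks. In EpiSC5, 70.5% of shared (69.7 to 71.3) and 45.6% of EpiSC5-only peaks (43.0 to 48.2) overlapped H3K27ac of EpiSC5, against 68.1% of all. The intervals cover counting of peaks alone, and not the difference that a repeat library would bring. The gap between classes was 14.7 points in 129O1 and 24.9 points in EpiSC5. It kept its direction but not its size under other rules. In EpiSC5 it was 12.9 points when an overlap of 50% of both peaks was asked for and 12.2 points with summits within 100 bp. In 129O1 it was 12.5 and 12.6, so the gaps of the lines were close by these rules. Among the higher-scoring 50% of each list it was 8.51 points in 129O1 and 22.2 in EpiSC5. Without 4 chromosome stretches where the lines differ in peak number, described below, the values were 74.9% and 60.5% in 129O1 and 70.4% and 44.9% in EpiSC5.

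A SOX6 peak missing from the other line did not usually lie in chromatin acetylated in its own line alone. Of 129O1-only peaks, 49.0% lay in OPC H3K27ac of both lines, 11.4% in that of 129O1 alone and 37.5% in that of neither. Of EpiSC5-only peaks, 35.7% lay in H3K27ac of both lines, 9.86% in that of EpiSC5 alone and 50.2% in that of neither. Among shared peaks, H3K27ac of both lines covered 67.7% in 129O1 and 67.5% in EpiSC5, and that of the peak's own line alone 7.39% and 2.98%. Peaks of 1 line only were thus more often in acetylation private to their line than shared peaks were, although such peaks were the minority in every class. The acetylated regions under SOX6 had a median width of 1745 bp at shared and 1735 bp at 129O1-only peaks, and of 1534.5 and 1231 bp in EpiSC5.

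**Figure D1:**
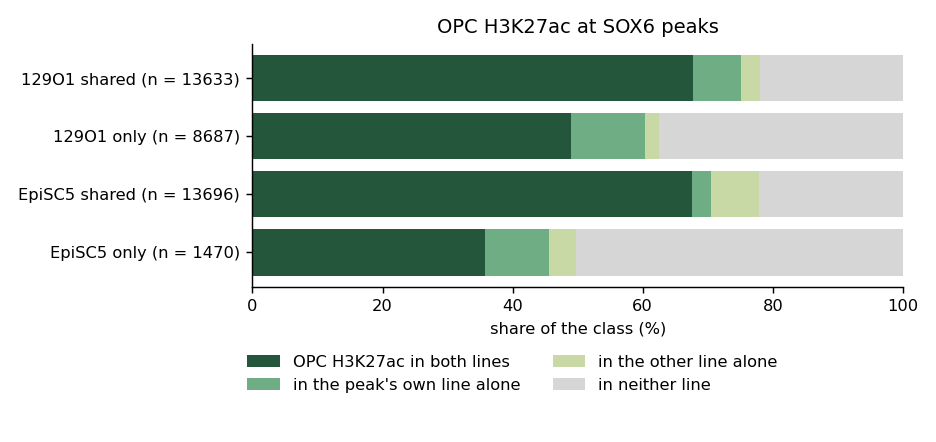
Share of each class of OPC SOX6 peaks (x axis, %) by the line in which OPC H3K27ac overlapped the peak, for shared and 1-line peaks of 129O1 and EpiSC5 (1 library per line, n of peaks beside each bar). H3K27ac of both lines covered 67.7% and 67.5% of shared peaks, 49.0% of 129O1-only and 35.7% of EpiSC5-only peaks.

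Later acetylation followed the same order. H3K27ac of OLs of the same line covered 64.7% of shared and 55.8% of 129O1-only peaks, and 58.3% and 34.1% in EpiSC5. Neither OPC nor OL of the line had H3K27ac at 17.7% and 29.2% of the 129O1 classes and at 19.9% and 43.0% of the EpiSC5 classes. Acetylation gained after the OPC stage, in OL and not in OPC, had the opposite order when counted over all peaks of a class. It was found at 7.22% of shared and 10.4% of 129O1-only peaks, and at 9.65% and 11.4% in EpiSC5. OPC H3K27ac of the line covered 60.4% of 129O1-only and 45.6% of EpiSC5-only peaks, against 75.1% and 70.5% of shared peaks. A larger part of the 129O1-only and EpiSC5-only classes could thus gain acetylation. The order therefore does not show more frequent gain among peaks outside OPC H3K27ac. SOX6 itself was mapped in OLs of EpiSC5 alone. Its OL peaks overlapped 10.5% of shared and 7.17% of 129O1-only peaks of the 129O1 list (9.23% of all), and 10.5% of shared and 3.20% of EpiSC5-only peaks (47 peaks) of the EpiSC5 list (9.76% of all).

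The difference in OPC H3K27ac between classes was present among peaks of like strength in both lines. From the lowest to the highest of the 4 groups by −log10 q, H3K27ac of 129O1 covered 65.3%, 66.1%, 72.1% and 84.0% of shared peaks and 59.3%, 59.6%, 64.7% and 77.9% of 129O1-only peaks. In EpiSC5 the values were 65.5%, 64.5%, 69.4% and 80.7% for shared and 49.9%, 39.1%, 41.3% and 47.4% for EpiSC5-only peaks, the last from 19 peaks. The gap in 129O1 was narrower within each group than over the whole list.

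**Figure D2:**
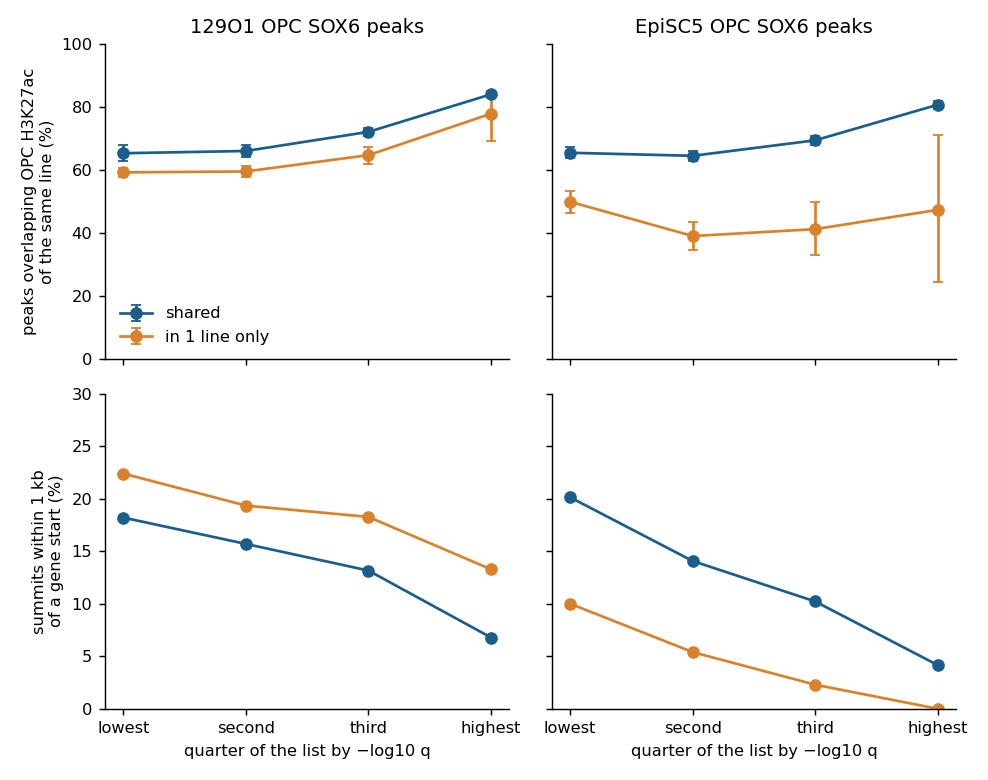
OPC SOX6 peaks of 129O1 (left) and EpiSC5 (right), split into 4 equal groups by −log10 q (x axis), with the share overlapping OPC H3K27ac of the same line (top, %, whiskers are exact 95% binomial intervals) and the share with a summit within 1 kb of a gene start (bottom, %), for shared peaks and peaks of 1 line only. H3K27ac was more frequent at shared peaks in all 4 groups of each list. The start share declined with peak strength and ordered the classes oppositely in the 2 lines.

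Against genes, the 1-line classes of the lines differed from shared peaks in opposite directions. The summit lay inside a protein-coding gene for 54.9% of shared and 57.5% of 129O1-only peaks (55.9% of the list), and for 54.8% of shared and 48.0% of EpiSC5-only peaks (54.2%). For summits outside genes the median distance to the nearest gene was 32.6 kb for shared and 23.1 kb for 129O1-only peaks, and 32.4 and 48.2 kb in EpiSC5. A RefSeq start lay within 1 kb of the summit for 11.6% of shared and 20.6% of 129O1-only peaks (15.1% of the list; 1514 and 1741 peaks). In EpiSC5 it did so for 11.6% of shared and 7.68% of EpiSC5-only peaks (11.2%; 1529 and 107 peaks). Starts on chromosome 18 were not used. Without the 4 stretches the shares were 11.5% and 19.9% in 129O1 and 11.6% and 7.30% in EpiSC5.

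The order in EpiSC5 depended on how the classes were made. With as many peaks in both lists, 10.7% of shared and 13.1% of EpiSC5-only peaks lay near a start, and in 129O1 10.7% of shared and 18.1% of 129O1-only peaks. With an overlap of 50% of both peaks asked for, the EpiSC5 shares were 11.2% and 11.4%, and with summits within 100 bp 11.2% and 11.7%. The higher share of start sites among 129O1-only peaks was seen under each of these settings.

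Start sites and distal sites differed in their acetylation. Within 1 kb of a start, H3K27ac of the same line covered 97.5% of shared and 96.8% of 129O1-only peaks, and 96.0% and 89.7% in EpiSC5. Farther from starts it covered 72.1% and 51.0% in 129O1 and 67.1% and 41.5% in EpiSC5. The classes thus differed in H3K27ac mainly at distal sites, where a shared peak was acetylated more often than a 1-line peak by 21.1 points in 129O1 and 25.7 points in EpiSC5.

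Promoter sequence was searched for AACAAT, the core that SOX proteins are known to bind, and for ACAAAG, a related core, on both strands. The RefSeq table holds 20084 promoters of 16456 genes, each with 250 bases before and 50 bases after a start. The 2 motifs cannot share a base. AACAAT was present in 11.7% of the 1096 promoters with a shared summit, in 6.13% of the 1174 with a 129O1-only summit, in 7.27% of the 55 with an EpiSC5-only summit and in 8.78% of all promoters. ACAAAG was present in 19.5%, 14.4%, 21.8% and 16.6%. Promoters with a shared summit had a mean GC content of 60.8% and those with a 129O1-only summit of 61.8%, against 56.5% for all.

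Within 101 bases centred on a summit, as in the sequences shown above, either motif was present in 82 of 515 windows (15.9%) with a shared summit, in 53 of 526 (10.1%) with a 129O1-only summit and in 5 of 26 (19.2%) with an EpiSC5-only summit. The middle window of all promoters held one in 9.54%. The share in 129O1-only windows was thus close to that of promoters at large, and the share in shared windows was higher. Among the windows shown, both shared ones hold a single AACAAT, 43.5 bp from the summit at Sox6 and 37.5 bp at Olig2. The 129O1-only window of Mobp holds ACAAAG 3 times, the nearest 4.5 bp from the summit. No match was found in the 129O1-only windows of Sox6 and Id2 or in the EpiSC5-only window of Neu4. Genome sequence at distal peaks was not used here.

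The excess of 129O1 peaks was not spread evenly over the genome. On the 16 chromosomes other than 3, 15 and 17, 129O1 had between 1.24 and 1.51 times as many peaks as EpiSC5, and between 60.2% and 70.5% of its peaks were shared. On chromosome 17 it had 1521 peaks against 572, a ratio of 2.66, and 35.96% were shared, whereas 96.5% of the EpiSC5 peaks there were. On chromosome 3 from 140 Mb to its end it had 299 against 60, a ratio of 4.98, with 19.7% shared and all 60 EpiSC5 peaks shared. Before 140 Mb the ratio on chromosome 3 was 1.503 and the shared part 60.9%.

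Other stretches went the opposite way. On chromosome 15 from 40 Mb the lists held 573 and 556 peaks, a ratio of 1.03, and 114 of the 1470 EpiSC5-only peaks lay there. Before 40 Mb the ratio was 1.46. On chromosome 18 from 80 Mb they held 34 and 63 peaks, a ratio of 0.54, with 30 found in EpiSC5 only. Before 80 Mb the ratio was 1.32. The limits of these 4 stretches were set after the values were seen, from the fold enrichment of overlapping SOX6 pairs in bins of 5 Mb, and the stretches are not uniform. The log2 ratio of the fold in 129O1 to that in EpiSC5 departed from its median over all pairs by at least 0.2 in 15 of 18 bins on chromosome 17, 3 of 3 on distal chromosome 3, 5 of 12 on chromosome 15 from 40 Mb and 1 of 1 on distal chromosome 18. It also did so in 18 of 415 bins elsewhere. The first 15 Mb of chromosome 17 did not depart, and there the lists held 236 and 139 peaks, a ratio of 1.70, with 54.7% of the 129O1 peaks shared. From 15 Mb on they held 1285 and 433, a ratio of 2.97, with 32.5% shared.

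Since the stretches were drawn from peak strength, its values are a description. Over the remaining genome the median fold enrichment of shared peaks was 6.30 in the 129O1 list and 5.21 in the EpiSC5 list. On chromosome 17 it was 7.62 and 4.85, on distal chromosome 3 12.9 and 6.18, on chromosome 15 from 40 Mb 4.75 and 4.65, and on distal chromosome 18 5.13 and 6.91. The number of OPC H3K27ac peaks in 129O1 over EpiSC5 was 1.19, 1.71, 0.943 and 0.856 in these stretches and 1.11 elsewhere, so their number leaned the same way by less. In OLs the ratios were 1.20, 1.35, 0.941 and 0.855, and 1.09 elsewhere. H3K27ac strength did not follow. Among OPC H3K27ac peaks that overlap one of the other line, the median fold was 4.84, 5.50, 4.22 and 5.14 in the 129O1 list, against 4.95 elsewhere, and 4.31, 4.94, 3.93 and 4.46 in the EpiSC5 list, against 4.30. The EpiSC5 OL SOX6 list numbered 45.5% of the EpiSC5 OPC list on chromosome 17, 15.0% (9 peaks) on distal chromosome 3 and 28.8% on chromosome 15 from 40 Mb. It numbered 54.0% on distal chromosome 18 and 24.4% elsewhere. This share varied widely, from 18.6% to 41.1% on the 16 chromosomes other than 3, 15 and 17. On chromosome 3 before 140 Mb it was 16.6%. The cause of the regional pattern was not tested. Without the 4 stretches 63.1% of 129O1 and 90.6% of EpiSC5 peaks were shared.

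**Figure D3:**
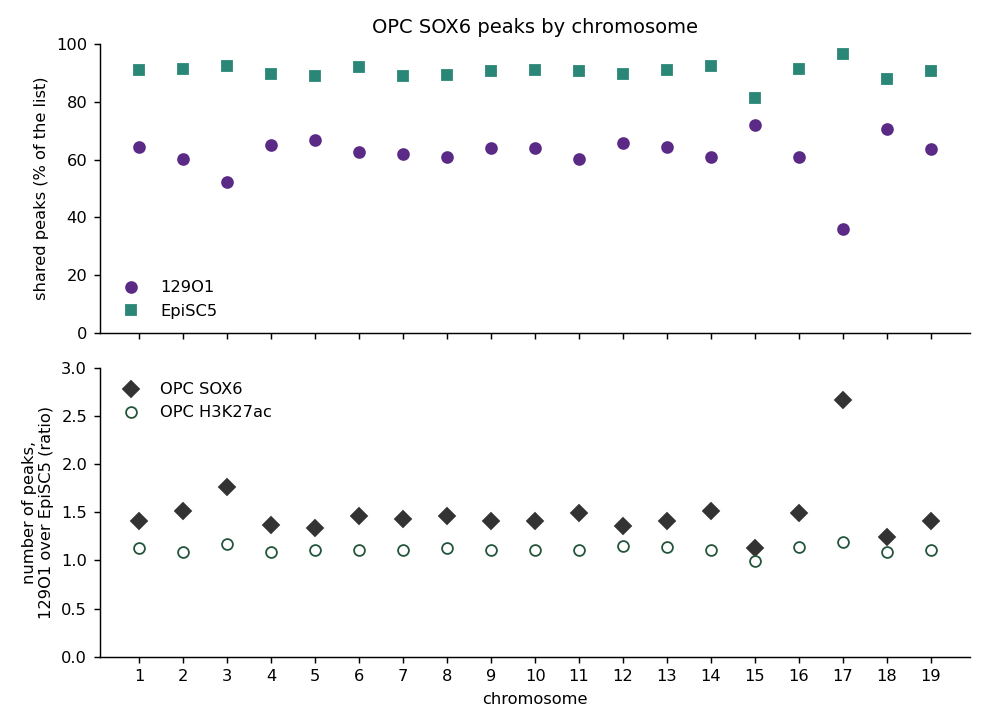
OPC SOX6 peaks by chromosome (x axis, 1 to 19), with the shared part of each list (top, %) and the number of peaks in 129O1 over EpiSC5 (bottom, ratio) for SOX6 and for H3K27ac. Chromosome 17 stands apart, with 35.96% of 129O1 peaks shared and a SOX6 ratio of 2.66 against 1.19 for H3K27ac, and chromosome 15 has the lowest EpiSC5 share, 81.4%.

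The strongest shared peaks lay beside lineage genes in part. The site at Sox21, a SoxB factor gene, ranked first in EpiSC5 with a fold of 43.4 and second in 129O1 with 46.9 (chr14:118230225-118231084 in 129O1), in OPC and OL H3K27ac of the line and in the OL SOX6 list. The first in 129O1, with 53.8, lay in Pdlim5 (chr3:142318101-142318630), inside the distal chromosome 3 stretch, and had 27.9 in EpiSC5. A site 100.4 kb from Stmnd1 had 39.6 in 129O1 and 32.7 in EpiSC5 and lay outside H3K27ac of OPC and OL in each line. Nkx2-2, which encodes a homeodomain factor of oligodendrocyte differentiation, held a site with 32.1 in EpiSC5 and 34.6 in 129O1. Of the 5 strongest shared sites of each list, 2 were the same, those at Sox21 and Stmnd1.

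The strongest peaks of 1 line only were weaker than these. In 129O1 the first lay in Cdh11, a cadherin gene, with a fold of 19.5, in H3K27ac of 129O1 OPCs and outside that of EpiSC5 OPCs. The next lay in Hs2st1, a heparan sulfate sulfotransferase gene, with 16.3, and in St6galnac3 with 14.0, both on distal chromosome 3. In EpiSC5 the first lay in Rbfox1, an RNA-binding splicing regulator gene, with 16.9, in H3K27ac of EpiSC5 OPCs and 954.8 kb from the nearest 129O1 peak. Clstn2 followed with 12.7. All 5 strongest EpiSC5-only sites, with Prr23a1, Tbc1d22a and Stim2 as the other nearest genes, lay outside OPC H3K27ac of 129O1, and 3 of them lay in that of EpiSC5.

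Counted by gene, with peaks in the body or within 10 kb, both lines had SOX6 at 6680 of 20661 protein-coding genes (32.3%). 129O1 alone had it at 2816 (13.6%), EpiSC5 alone at 286 (1.38%) and neither at 10879 (52.7%). A gene bound in 1 line usually rested on a single peak, in 2210 of the 2816 and 269 of the 286. Genes bound in both lines were long, with a median length of 36.7 kb against 20.0 kb, 28.1 kb and 10.7 kb in the other classes. Windows of neighbouring genes overlap, so that a peak can count for several genes. With lists of equal length the numbers bound in 1 line were 1209 in 129O1 and 988 in EpiSC5.

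The genes with most shared peaks were long genes, several of adhesion and of the SoxD group. Lsamp, an IgLON adhesion gene, held 32 peaks in 129O1 and 20 in EpiSC5, of which 19 were shared. Opcml, another IgLON gene, held 20 and 17, and Nrxn3, which encodes a neurexin, 19 and 17, with 16 shared at each. Ncald, a calcium sensor gene, held 27 and 13, all 13 shared. Ank2, Rere, Maml2 and Frmd4a held between 14 and 17 in 129O1 and between 12 and 15 in EpiSC5.

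SOX6 bound its own gene and its closest relative in both lines. Sox6 held 20 peaks in 129O1 and 15 in EpiSC5, 14 of them shared, with 19 and 14 in H3K27ac of the line. Its shared peaks had a median fold of 12.6 in the 129O1 list and 6.40 in the EpiSC5 list, and its 129O1-only peaks 3.64. Sox5 held 23 and 16, 15 shared, with 13 and 10 in H3K27ac. Of 17 SOX genes on the chromosomes used, 10 were bound in both lines (58.8%, against 32.3% of all genes). In 129O1 alone 2 were bound (11.8%, against 13.6% of all genes), and 5 were bound in neither. Sox8 and Sox10, which encode SoxE factors, held 6 and 4 peaks and 3 and 3 peaks, every one in H3K27ac, with all EpiSC5 peaks shared. Sox9, the remaining SoxE gene, held none in either line. Sox12 and Sox15 were bound in 129O1 alone, by 1 and 2 peaks.

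Genes that mark OPCs were bound in both lines in 27 of 30 cases, against 32.3% of all genes, and all 30 had OPC H3K27ac in each line. The list was chosen with earlier results of these data known and gene length was not matched, so the contrast is a description. Pdgfra, the receptor for PDGFA and the gene of CD140a, held 5 and 4 peaks with all 4 shared. Cspg4, the gene of NG2, held 4 in each line, all shared. Olig1 held 5 and 4, and Olig2 6 and 4, with 4 shared at each. Ptprz1, a receptor phosphatase gene, held 3 in each line, of which 2 were shared. The exceptions were Zfp36l1, bound in 129O1 alone, Neu4, bound in EpiSC5 alone, and Rlbp1, bound in neither. Each of the first 2 rested on a single peak.

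Genes of immature oligodendrocytes were bound in both lines in 18 of 24 cases (75.0%), against 32.3% of all genes. Fyn, a Src-family kinase of oligodendrocyte differentiation, held 9 and 8 peaks, 7 shared and all in H3K27ac. Bcas1 held 3 and 2, with both EpiSC5 peaks shared, and these overlapped OL SOX6. Enpp6 held 3 and 2, and its strongest site had a fold of 21.9 in 129O1 and 15.6 in EpiSC5, but none of its peaks lay in OPC H3K27ac of the line. Cnksr3 was bound in EpiSC5 alone, and Rras2 and Fam107b in 129O1 alone. Of 14 lineage transcription factor genes 11 were bound in both lines (78.6%, against 32.3% of all genes). Tcf7l2, an effector of Wnt signalling, held 6 and 5 peaks, 5 shared, with a strongest fold of 27.9 and 21.3. Myrf, the regulator of myelin genes, held 3 in each line, all shared. Zfp536 held 9 and 6, with 6 shared, and Zeb2 held 6 and 3, with 2 shared.

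At Zeb2, which encodes a zinc finger factor of oligodendrocyte differentiation, the strongest 129O1 peak, with a fold of 7.99, was found in 129O1 only. In the other 17 of the bound genes plotted by peak number, the strongest peak of each line was shared.

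**Figure D4:**
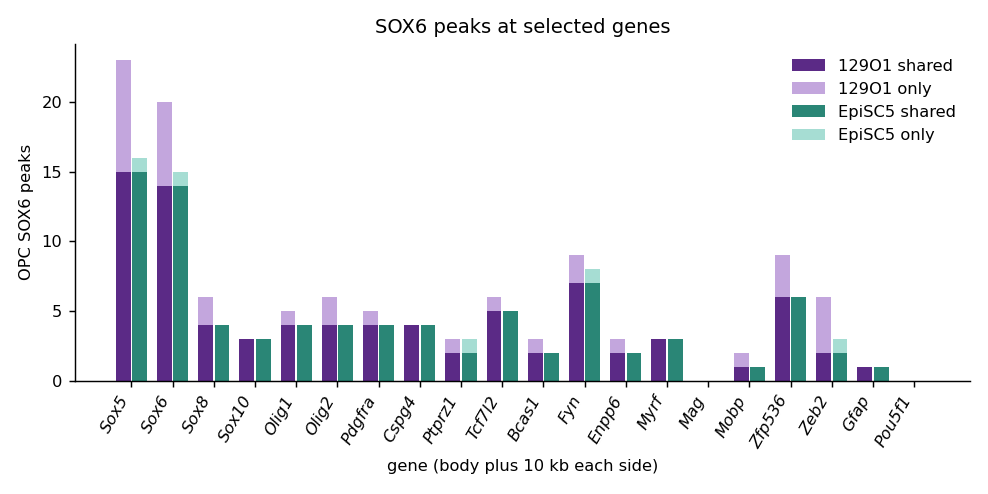
Number of OPC SOX6 peaks (y axis) in the body or within 10 kb of 20 genes (x axis), for 129O1 (left bar of each pair) and EpiSC5 (right bar), with shared peaks in the darker and 1-line peaks in the lighter shade. Sox5 and Sox6 have the most peaks, 23 and 20 in 129O1 and 16 and 15 in EpiSC5, and Mag and Pou5f1 have none.

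Myelin genes were bound in both lines in 19 of 30 cases (63.3%, against 32.3% of all genes). They were bound in 129O1 alone in 2 (6.67%, against 13.6%), Ermn and Hapln2, and in neither in 9, among them Mag. Mobp held 2 peaks in 129O1 and 1 in EpiSC5, none in OPC H3K27ac of the line. Mbp, the gene of myelin basic protein, lies in the distal chromosome 18 stretch and held 2 peaks in 129O1 and 3 in EpiSC5, 2 of them shared. Mog, on chromosome 17, held 2 and 1. Of signalling genes, those of MAPK feedback were bound in both lines in 15 of 18 cases (83.3%, against 32.3% of all genes). They were bound in 129O1 alone in 2 (11.1%, against 13.6%), Dusp4 and Ier3. Those of the Wnt, BMP and Notch pathways were bound in both lines in 16 of 25 and in 129O1 alone in 5, or 20.0%, against 32.3% and 13.6% of all genes. These 5 were the BMP targets Id1 and Id2, the BMP inhibitor gene Smad6, and the Notch pathway genes Hey1 and Jag1. Dll1, a Notch ligand gene on chromosome 17, held 9 and 5 peaks, and Bmpr1b, a BMP receptor gene on distal chromosome 3, held 11 and 3. Both lie in stretches where 129O1 had more peaks. The excess was small at Sox8, also on chromosome 17, with 6 and 4.

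Genes of other cell types gave a scale for these counts. Peaks in both lines were present at 9 of 14 astrocyte genes, 7 of 14 neuron genes, 6 of 12 housekeeping genes, 3 of 12 microglia genes, 2 of 11 Schwann cell and neural crest genes and 1 of 14 pluripotency genes. In 129O1 alone they were present at 1, 2, 1, 3, 2 and 0. Gfap, the astrocyte filament gene, held 1 shared peak in each line with a fold of 7.29 and 7.50. Pou5f1, a pluripotency gene, held no SOX6 peak, with 1.03 kb of H3K27ac in 129O1 and 0.30 kb in EpiSC5. OPC H3K27ac was present in both lines at many genes of any kind, at 69.0% of all genes in 129O1 and 66.9% in EpiSC5, so presence alone separated cell types poorly. It was found at 9 and 8 of 14 pluripotency genes and at all 30 OPC genes. Covered length overlapped between lists at single genes. It was 15.2 and 13.1 kb at Pdgfra and 16.8 and 12.1 kb at Cspg4, but 1.62 and 0.867 kb at the OPC gene Ednrb. The neuron gene Map2 had 37.4 and 31.0 kb and the astrocyte gene Slc1a3 had 13.9 and 13.8 kb, each the longest of its list. Among pluripotency genes the longest was 3.08 and 1.89 kb, at Tdgf1. The lists were not compared as wholes by covered length.

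**Figure D5:**
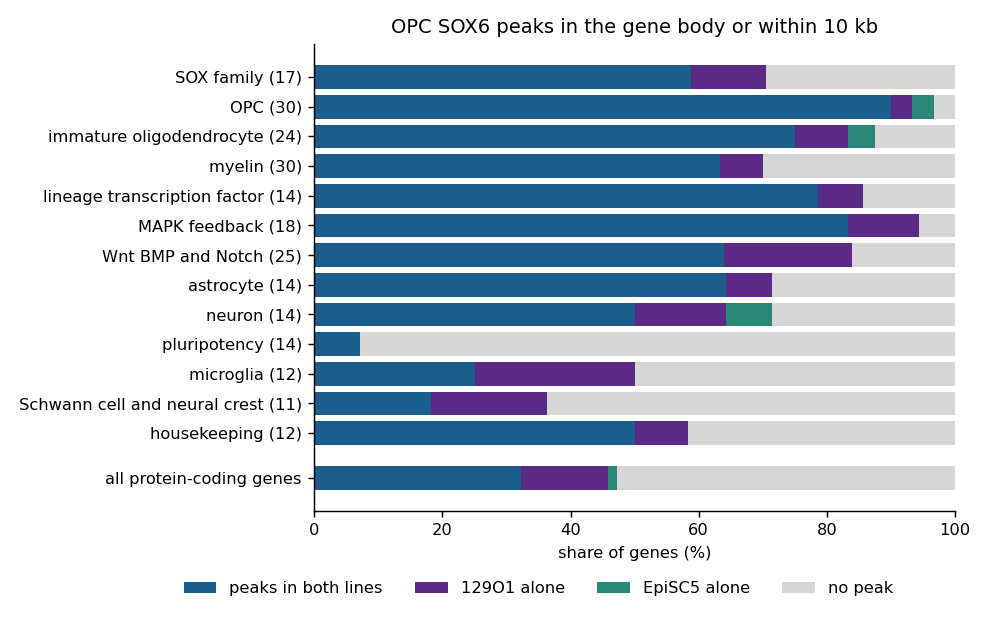
Share of the genes of each list (x axis, %, number of genes on chromosomes 1 to 19 in parentheses) with OPC SOX6 peaks in both lines, in 129O1 alone, in EpiSC5 alone or in neither, and the same for all protein-coding genes at the bottom. OPC genes have peaks in both lines in 90.0% of cases, against 32.3% of all genes, 64.3% of astrocyte genes and 7.14% of pluripotency genes. The lists were chosen with earlier results of these data known, and gene length was not matched.

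Over all 13 lists, 24 of 220 genes (10.9%) were bound in 129O1 alone, against 13.6% of all genes, and 3 (1.36%) in EpiSC5 alone, against 1.38%. These shares are near the background, and the genes are named only to account for them. The 3 were Neu4, Cnksr3 and Slc17a6. Of the 24, 18 rested on a single peak, and 3 (Tbp, Aif1 and Ier3) lie on chromosome 17. Egr2 and Pmp22, genes of the Schwann cell program, held 2 peaks each in 129O1 and none in EpiSC5. The genes bound in 1 line thus came from many lists, and most held 1 peak.

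The genes with most peaks in 1 line alone lay mainly in the stretches named above. Of the 10 in 129O1, 5 lie on chromosome 17 and 4 on distal chromosome 3. Zfp53, a zinc finger gene, held 6 peaks, as did Rxrb, a retinoid X receptor gene, and its neighbour Slc39a7, a zinc transporter gene, which share the same peaks. Supt3, Tnfrsf21, Ak5, Pigk, Lmo4 and Miga1 held 5 each. All 9 had OPC H3K27ac in both lines, for example 8.88 kb in 129O1 and 6.51 kb in EpiSC5 at Rxrb. Lmo4, the gene of a LIM-only transcriptional cofactor, had 6.88 and 4.54 kb. Gm20783 on chromosome 9, with 5 peaks, was the exception in position. Of the 10 in EpiSC5, with 2 peaks each, 5 lie on chromosome 15 from 40 Mb (Fam135b, Samd12, Cdc42ep1, Atad2 and its neighbour Wdyhv1) and Tshz1 on distal chromosome 18. The others were Lyg1, Myo3a, Slc26a4 and Wdr72. On chromosome 17, 356 of 1059 genes (33.6%) were bound in 129O1 alone and 1 in EpiSC5 alone. On distal chromosome 3, 36 of 86 (41.9%) and none were. On chromosome 15 from 40 Mb the numbers were 45 and 40 of 639 genes. Outside the stretches they were 2379 and 241 of 18842.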

How the data were processed

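Each OPC SOX6 list belongs to 1 library per line. Per the submitters' processing notes, the build was mm10 and the software included Bowtie2 2.3.2, Trim Galore 0.3.1, bedtools, deepTools and Picard. The peak caller is not given in the sources used here, nor is its control, and the input samples were not analysed here. The deposited score, fold enrichment (a ratio), −log10 p and −log10 q of each peak were made by the authors. They served here only to describe, rank or trim peaks within a list. The labels name 2 sequencers without assigning libraries, so that batch was not examined.

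Python 3.11.15 with pandas 2.3.3, NumPy 2.4.6 and SciPy 1.17.1 was used, and overlaps and distances were checked on simulated data. H3K27ac and genes counted from 1 bp of overlap. Genes came from RefSeq on GRCm38.p6, and start sites from its promoter table, which was used without chromosome 18. Coordinates are 1-based. The members and gene lists were chosen with earlier results of these data known. Named genes were the 10 with most shared peaks, the 10 with most peaks in each line alone, the gene nearest to the 5 strongest peaks of each class, 21 genes always given and list members bound in 1 line. Entries of the gene lists that are not protein-coding genes of chromosomes 1 to 19 were not used. Some genes taken by the rule are not reported here. Alternatives were other overlap and summit rules, lists trimmed by score, other gene windows and the genome without 4 stretches, the last added after seeing the data, as were those for start sites.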

Additional observations from a re-analysis of the deposited data

Results flagged for a closer look

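The share of peaks near a start, taken as shared minus 1-line peaks, had opposite signs in the lines, at -9.01 points in 129O1 and 3.95 points in EpiSC5. The difference between the lines was not tested, and the EpiSC5 sign turned under 3 alternatives.

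Peaks outside chromosomes 1 to 19 entered no comparison. The 129O1 list held 497 on chromosome X and 59 on chromosome Y, and the EpiSC5 list 316 and 5. The input samples of the lines were not analysed here, so these peaks were not compared with a control.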

How the results depend on the processing

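No paired analysis was possible because each line is its own group with 1 library. For the same reason no replicate was left out. Exact depth is unknown, and absence from a list is not absence of binding.

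The shared part of the 129O1 list (61.1%) was 58.6% with 50% overlap, 58.7% with summits within 100 bp, 77.2% with equal numbers, 62.1% for the higher-scoring 50%, 63.6% when peaks within 1 kb counted and 63.1% without the stretches. That of EpiSC5 (90.3%) was 86.3%, 86.4%, 77.7%, 91.5% and 90.8% under the first 5. The H3K27ac gap kept its direction in all. In 129O1 (14.7 points) it was 12.5 with 50% overlap, 12.6 by summits and 8.51 for the higher-scoring 50%. In EpiSC5 (24.9) these were 12.9, 12.2 and 22.2, with 16.7 at equal numbers.

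The start-site gap in EpiSC5 (3.95 points) turned to -0.18 with 50% overlap, -0.49 by summits and -2.33 at equal numbers, and that in 129O1 (-9.01) was -7.41 at equal numbers. The gene-body gap in 129O1 (-2.60) was -1.15 with all genes of the table. The relative summit of 129O1-only peaks was 49.7% for the higher-scoring 50%. Genes bound in both lines numbered 11516 with 50 kb windows and 3759 for the higher-scoring 50%. Genes bound in 1 line numbered 1209 in 129O1 and 988 in EpiSC5 at equal numbers, and 177 in EpiSC5 for the higher-scoring 50%. The other 34 values stayed within their intervals or within 1.5 times the count.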
